A study of Mus musculus with 4 samples.

Results

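Interferon regulatory factors (IRFs) are the transcription factors through which cells switch on interferon genes and the genes that interferons induce. The results below describe 8 of them, Irf1, Irf2, Irf3, Irf4, Irf5, Irf7, Irf8 and Irf9, in isolated mouse pancreatic islets. The members were taken by gene symbol from a table of 24421 gene rows, and all 8 were found. Islets are the endocrine part of the pancreas, in mice made up chiefly of insulin-secreting beta cells. All islets came from wild-type C57BL/6 mice, recovered overnight and were kept in RPMI medium with 11 mM glucose. The cytoEV group, with 2 libraries, was given cytoEV, as the labels name the treatment, daily over 48 h. The control group, also with 2 libraries, is called untreated in the labels, whereas its columns in the deposited table are named Ctl_EV. It is therefore open whether the control islets received vesicles, and for how long they were cultured. By the title of the series, the treatment consists of small extracellular vesicles, particles that cells shed, from beta cells in a pro-inflammatory state. No label says whether islets were pooled, or whether the 2 libraries of a group stem from different mice or dishes. The p-values therefore reflect the spread of these libraries, which may be technical.

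IRF proteins share a DNA-binding domain that recognises repeats of GAAA, the core of the interferon-stimulated response element (ISRE). IRF1 is itself made in response to interferon gamma and activates genes of antigen presentation and chemokines, while IRF2 binds the same elements and mostly opposes it. IRF9 joins STAT proteins, STAT2 among them, to form ISGF3, the complex that type I interferon receptors activate. IRF3 and IRF7 are phosphorylated after the sensing of viral nucleic acids and turn on the interferon genes themselves. IRF4, IRF5 and IRF8 are best known from immune cells such as lymphocytes, macrophages and dendritic cells. Interferon exposure of islets and IRF1 activity in beta cells have been studied as parts of the inflammation of type 1 diabetes.

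The deposited values are CPM, the reads of a gene scaled to the total reads of its library, and the libraries held between 129726756 and 156183968 reads, so that 3 reads correspond to between 0.0192 and 0.0231 CPM. The islet identity of the libraries was checked with 10 endocrine genes, among them the insulin genes Ins1 and Ins2, the glucagon gene Gcg and Pdx1. Their summed level was 226357 and 238002 CPM in cytoEV islets, against 236037 and 204076 CPM in control islets, and all 10 passed the filter on low values. Slc2a2, the gene of the beta cell glucose transporter, was higher in cytoEV islets (log2 change 1.19, limma adjusted p = 7.65e-05), and the other 9 did not pass in limma. DESeq2 called 1 of the 10 higher and 1 lower, beside 5.83% and 6.61% of all tested genes. Genes of other pancreatic cells moved with the treatment. Of 4 acinar markers tested Cpa1, Prss2 and Ctrb1 were lower in cytoEV islets, and of 6 endothelial markers Pecam1, Cdh5 and Flt1 were lower (limma, adjusted p under 0.05). Over all tested genes 3.51% were lower. These 3 acinar genes were under 1 CPM in both cytoEV libraries, so they passed the filter only through the control libraries and had to be lower, and DESeq2 did not call Cpa1 (adjusted p = 0.069). The summed acinar level was 14.1 and 16.4 CPM in cytoEV islets, against 31.2 and 28.3 CPM in control islets, and the summed endothelial level was 27.7 and 28.4 CPM, against 41.0 and 41.1 CPM. The endothelial calls were the less stable: the calls of Pecam1 and Cdh5 were lost without cytoEV replicate 1 (adjusted p = 0.247 and 0.396) or without cytoEV replicate 2 (0.279 and 0.171), and with no filter none of the 3 passed. The part of these cells in the IRF results was not tested, and fewer cells of a type and less RNA per cell cannot be told apart in such bulk samples. The control pair was less alike than the cytoEV pair. Relative to counting noise, the chi-square over genes divided by its degrees of freedom was 29.3 between the cytoEV libraries and 102.3 between the control libraries.

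Irf1, Irf7 and Irf9 rose in cytoEV islets, and the other 5 members did not pass or could not be tested. Irf7 was 3.37-fold higher by the ratio of mean CPM, Irf9 2.02-fold and Irf1 1.77-fold. Of the 8 members 7 passed the filter of at least 1 CPM in at least 2 libraries, and 3 of these 7 were higher at a limma adjusted p under 0.05, beside 3.16% of the 12780 genes tested. The members lower numbered 0 in limma, beside 3.51% of all tested genes. At an unadjusted p under 0.05 in limma there were 4 members, 0 of them lower. Over the 12780 tested genes there were 2977, of which 1440 were lower. On whole reads edgeR found 3 members higher and 0 lower, beside 2.52% and 3.15% of all tested genes. DESeq2 found 4 higher and 0 lower, beside 5.83% and 6.61%. The median log2 change was 0.39 over the 7 members and 0.0055 over all tested genes. The 2 groups did not overlap for 6 of the 7, each with the cytoEV libraries above the control libraries, which was also the case for 27.8% of all tested genes. No member had both cytoEV libraries below both control libraries, as 26.1% of all tested genes did. With 2 libraries against 2, the smallest p of an exact permutation test is 0.33, so the calls depend on limma's sharing of the spread among genes.

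**Figure D1:**
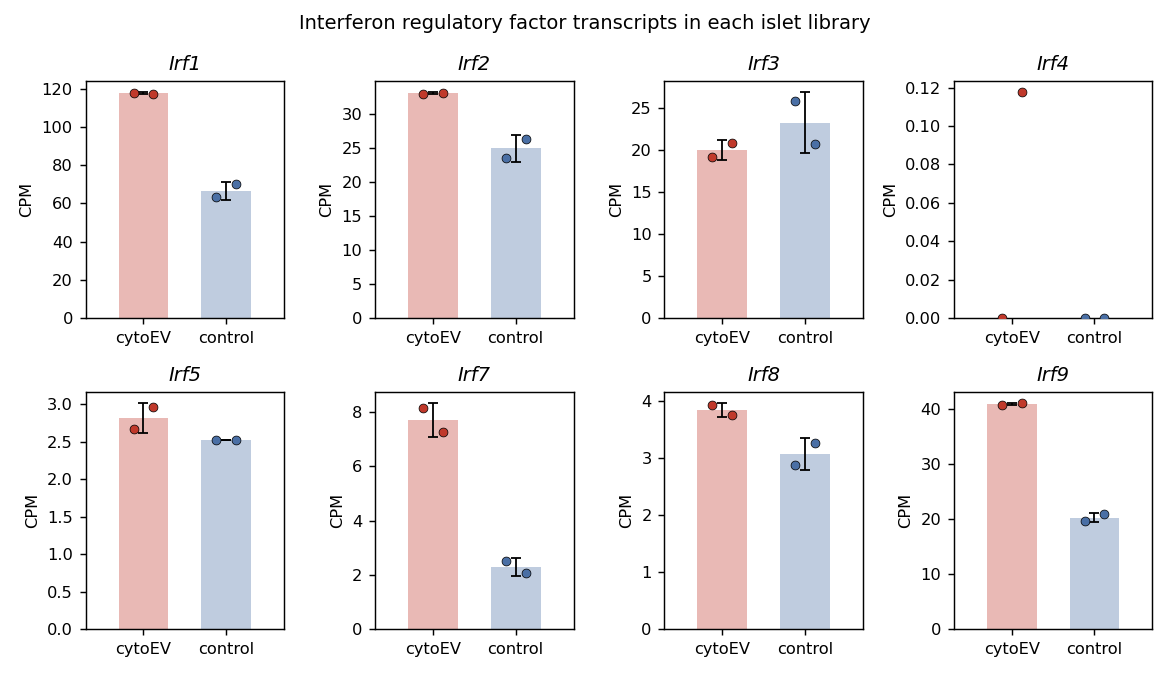
CPM of the 8 IRF genes (vertical axes, each from 0) in cytoEV and control islets; points are single libraries, bars are means and error bars the SD over 2 libraries. Both cytoEV points lie above both control points for Irf1, Irf2, Irf5, Irf7, Irf8 and Irf9, whereas the groups overlap for Irf3, and Irf4, drawn without bars, has a value above 0 in 1 cytoEV library.

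The stretches of promoter shown next carry the letters of elements through which interferon and NF-kB signals act on genes. They were searched in the 250 bases before each RefSeq gene start (GRCm38.p6), where all 8 members matched, with 11 starts in all. The motifs were GAAA, any 2 bases and again GAAA for the ISRE, TTCNNNGAA for the gamma-activated site (GAS) through which interferon gamma acts, and the NF-kB consensus, on both strands. The GAS pattern reads the same on either strand, and no matches of different motifs overlapped in the members. Among 32851 RefSeq promoters, 2.98% held the ISRE pattern, 7.02% the GAS pattern and 7.25% the NF-kB consensus. Irf1, Irf2 and Irf8 held a match to at least 1 motif, and their stretches are printed on the plus strand with the matches in capitals.
Irf1: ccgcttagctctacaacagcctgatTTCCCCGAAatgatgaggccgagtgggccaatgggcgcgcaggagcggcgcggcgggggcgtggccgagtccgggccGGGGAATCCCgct
Irf2: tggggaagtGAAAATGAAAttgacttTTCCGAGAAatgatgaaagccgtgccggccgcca
Irf8: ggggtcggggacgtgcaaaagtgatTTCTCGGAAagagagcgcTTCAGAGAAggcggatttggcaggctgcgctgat
The Irf1 stretch is chr11:53769899-53770013 and ends just before the gene start, with a GAS match that begins 90 bases and an NF-kB match that begins 13 bases before it. The Irf2 stretch, chr8:46739495-46739554, holds an ISRE match 241 bases and a GAS match 224 bases before the start. Irf2 also has an NF-kB match 17 bases before the RefSeq start, not printed because the other annotation used here, GENCODE, places part of it inside the transcript. The Irf8 stretch, chr8:120736162-120736238, holds GAS matches 171 and 153 bases before the start. The windows of the other 5 members held none of these patterns. Both RefSeq starts of Irf9, 55603985 and 55604579, lie inside the GENCODE span of the gene, so its windows do not reach the bases before that span. A match describes letters only and is not a measured site of binding.

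Irf1 was the most abundant of the 8 per transcript length. The gene lies on chromosome 11 from 53770014 to 53778374 on the plus strand (GENCODE M21, GRCm38). It had 117.9 and 117.3 CPM in cytoEV islets, against 63.1 and 69.9 CPM in control islets. The cytoEV libraries were nearly equal and stood well above both control libraries. The means were 117.6 ± 0.459 CPM in cytoEV islets and 66.5 ± 4.80 CPM in control islets (SD, n = 2 each). On the log2(CPM + 1) scale the change was 0.81 ± 0.09 (SE, limma adjusted p = 0.00114), larger than 99.0% of all tested changes. The call was kept in all 16 alternatives, in which the log2 change lay between 0.74 and 0.89.

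Irf2, the counterpart that binds the same elements, had a smaller difference that did not pass in limma. Its span is 46739732 to 46847458 on the plus strand of chromosome 8. Its level was 32.9 and 33.1 CPM in cytoEV islets, against 23.5 and 26.3 CPM in control islets. The groups did not overlap, and the control libraries lay further apart than the cytoEV libraries. The log2 change was 0.39 ± 0.10 (SE, limma adjusted p = 0.0574, 95% interval 0.16 to 0.63). It was at adjusted p = 0.0508 in edgeR and passed in DESeq2 (adjusted p = 0.00719). It also passed without control replicate 1 (log2 change 0.32) and without control replicate 2 (log2 change 0.47). These fits leave a single control library and called more genes in all than the main fit. Over its 16 alternatives the adjusted p ranged from 0.00104 to 0.556.

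The ratio of Irf1 to Irf2 within each library was 3.58 and 3.54 in cytoEV islets, against 2.68 and 2.65 in control islets, from CPM not divided by length. The ratio was thus higher in both cytoEV libraries than in both control libraries, with means of 3.56 ± 0.0280 and 2.67 ± 0.0189 (SD, n = 2 each). An exact two-sided permutation test gave p = 0.33, the smallest that this design allows.

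Irf9, the DNA-binding subunit of ISGF3, had 40.7 and 41.0 CPM in cytoEV islets, against 19.6 and 20.8 CPM in control islets. The spread within each group was small beside the distance between the groups. The log2 change was 0.98 ± 0.10 (SE, limma adjusted p = 0.000585), and it lay between 0.86 and 1.02 in 16 alternatives, all of which kept the call. The gene lies on chromosome 14 from 55603571 to 55610030 on the plus strand. Its span overlaps the end of Rnf31, which encodes a subunit of a ubiquitin ligase and lies on the same strand, by 123 bases, and 2.48% of the 50-base stretches of Irf9 transcripts also occur in Rnf31 or the gene model Gm38002. Rnf31 itself had 30.8 and 32.3 CPM in cytoEV islets, against 37.1 and 26.7 CPM in control islets, and did not pass (limma adjusted p = 0.995).

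Stat2, which encodes a partner of IRF9 in ISGF3, also rose. It was at 66.2 and 70.9 CPM in cytoEV islets, against 48.4 and 49.8 CPM in control islets, and changed by 0.47 ± 0.09 in log2 terms (SE, limma adjusted p = 0.0181). The ratio of Irf9 to Stat2 CPM, chosen after the values were seen, was 0.615 and 0.578 in cytoEV islets, against 0.405 and 0.418 in control islets.

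Irf7, which amplifies type I interferon production, had the largest fold among the members. Its span is 141262706 to 141266481 on the minus strand of chromosome 7. Its level was 8.15 and 7.26 CPM in cytoEV islets, against 2.52 and 2.05 CPM in control islets, from 1125 and 989 reads against 327 and 320 reads. Both cytoEV libraries lay far above both control libraries, with means of 7.71 ± 0.629 and 2.28 ± 0.334 CPM (SD, n = 2 each). The log2 change was 1.41 ± 0.13 on the log2(CPM + 1) scale (SE, limma adjusted p = 0.000432). Because the gene is low, the size depends on the pseudocount: it was 1.75 in edgeR on whole reads and 0.80 when 5 was added to the CPM. The call was kept in all 16 alternatives. Irf7 overlaps Phrf1, on the opposite strand, by 45 bases, and Phrf1 had a log2 change of -0.26 that did not pass (limma adjusted p = 0.133).

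Irf3, the partner of IRF7 that is present before any stimulus, was the only tested member with a lower mean in cytoEV islets. It had 19.1 and 20.8 CPM in cytoEV islets, against 25.8 and 20.7 CPM in control islets. The groups overlapped, and control replicate 1 stood apart from the other 3 libraries. The log2 change was -0.20 ± 0.13 (SE, limma adjusted p = 0.381, 95% interval -0.49 to 0.086). Without control replicate 1 the log2 change was -0.0498, while without control replicate 2 it was -0.35 and passed (adjusted p = 0.0108). In such fits with 3 libraries, the spread of a group with a single library is borrowed from the other group. The gene lies on chromosome 7 from 44997648 to 45002848 and overlaps Bcl2l12 on the opposite strand by 1065 bases, whose own level was between 0.246 and 0.419 CPM. The ratio of Irf7 to Irf3 CPM, also chosen after the values were seen, was 0.426 and 0.350 in cytoEV islets, against 0.0978 and 0.0991 in control islets.

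**Figure D2:**
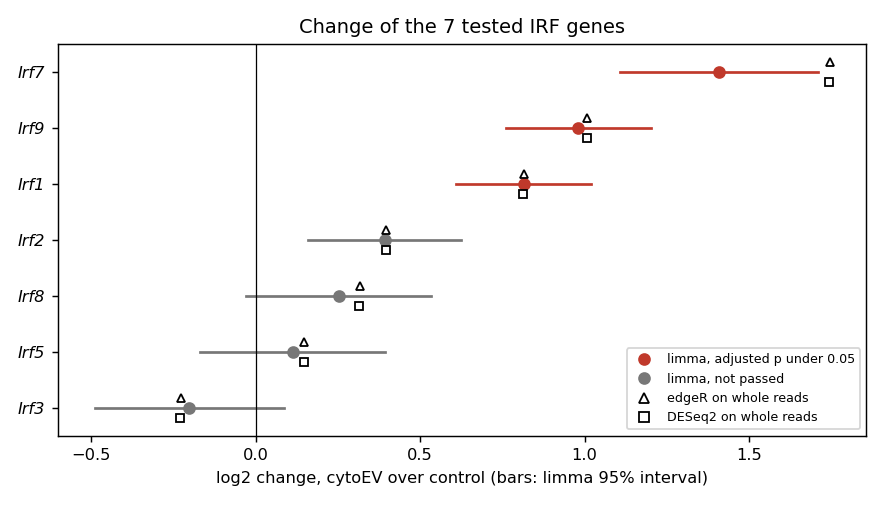
Log2 change of each tested IRF gene, cytoEV over control (horizontal axis), on the log2(CPM + 1) scale for limma with its 95% interval, with edgeR (triangles) and DESeq2 (squares) estimates from whole reads. Irf7, Irf9 and Irf1, in red, passed in limma at 1.41, 0.98 and 0.81, and the count-based estimates exceed limma's most for the low gene Irf7.

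The IRFs best known from immune cells were low in these islets. Irf8, which directs the development of macrophages and dendritic cells, had 3.92 and 3.75 CPM in cytoEV islets, against 2.87 and 3.26 CPM in control islets. Its groups did not overlap, but the log2 change of 0.25 ± 0.12 (SE) did not pass (limma adjusted p = 0.262, 95% interval -0.030 to 0.53). Irf5, which acts downstream of Toll-like receptors in macrophages, had 2.67 and 2.96 CPM in cytoEV islets, against 2.53 and 2.53 CPM in control islets. Its log2 change of 0.11 ± 0.12 did not pass either (SE, limma adjusted p = 0.633, 95% interval -0.17 to 0.39). Irf5 shares 7.51% of its 50-base stretches with the opposite strand of Tnpo3, a nuclear import gene at between 105.0 and 117.6 CPM, so part of the low Irf5 count is uncertain if counting ignored strand. Irf8 lies on chromosome 8 from 120736358 to 120756694 and Irf5 on chromosome 6 from 29526625 to 29541871, both on the plus strand.

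Irf4, a factor of B cell, plasma cell and T cell differentiation on chromosome 13 from 30749226 to 30766976, was below the filter and was not tested. It had 0 and 16 reads in the cytoEV libraries, against 0 and 0 reads in the control libraries. The 16 reads of cytoEV replicate 2 correspond to 0.118 CPM (95% exact Poisson interval 0.0672 to 0.191, counting error only). The limit taken for a count of 0, 3 reads, was 0.0217 CPM in cytoEV replicate 1, against 0.0231 and 0.0192 CPM in control replicates 1 and 2. The value above 0 thus stands in a single library, and no fold is given.

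Marker genes of immune cells were read beside these 3 members. Of 15 macrophage markers 14 were tested, and their summed level was 323.7 and 336.2 CPM in cytoEV islets, against 330.1 and 323.2 CPM in control islets. The fractalkine receptor gene Cx3cr1 was higher by 0.75 ± 0.12 in log2 terms (SE, limma adjusted p = 0.00714) and the endotoxin co-receptor gene Cd14 lower by 0.62 ± 0.12 (SE, limma adjusted p = 0.0205). With no filter on low values neither passed (adjusted p = 0.0673 and 0.0975), and Cd14 was also lost without cytoEV replicate 1 (0.0892) and without cytoEV replicate 2 (0.0736). Aif1, the marker with the next smallest p, had a log2 change of 0.52 that did not pass in limma (adjusted p = 0.0724). It passed with a replicate block (0.0209), in DESeq2 (0.0376) and without control replicate 2, a fit in which far more genes passed in all. In all, DESeq2 called 3 macrophage markers higher and 1 lower, beside 5.83% and 6.61% of all tested genes. Summed macrophage levels overlapped between the groups, but the markers moved both ways. At an unadjusted p under 0.05 in limma 5 of the 14 were higher and 3 lower. Of the 12780 genes tested 2977 were under that threshold, 1440 of them lower. Lyz2, the largest part of the sum, had 142.1 and 142.1 CPM in cytoEV islets, against 156.0 and 175.3 CPM in control islets. C1qa had 59.5 and 63.4 CPM in cytoEV islets, against 51.0 and 39.7 CPM in control islets (adjusted p = 0.0733 in limma and 0.0177 in DESeq2). Lyz2 and C1qa were named after their values were seen.

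Of 8 dendritic cell markers only Itgax passed the filter, with 15.6 and 15.0 CPM in cytoEV islets, against 11.8 and 12.2 CPM in control islets (limma adjusted p = 0.111). Xcr1 and Cd209a were at 0 in all libraries. Clec9a had 10 and 13 reads in the cytoEV libraries, against 0 and 0 in the control libraries, and Zbtb46 had 68 and 17, against 44 and 47. Flt3, Ccr7 and Siglech each had a few reads in a single cytoEV library and none in control islets. Itgax also occurs on macrophages. The summed level of the 8 was 16.2 and 15.2 CPM in cytoEV islets, against 12.2 and 12.5 CPM in control islets. Of 7 B cell markers Ms4a1, Cd79b and Blk were at 0 in all libraries. Cd79a, which encodes a chain of the B cell receptor, was the single B cell marker tested and was higher by 0.67 ± 0.13 (SE, limma adjusted p = 0.0164). This call did not hold with no filter (0.0891) and without cytoEV replicate 2 (0.0725). The summed B cell level was 6.17 and 6.66 CPM in cytoEV islets, against 4.08 and 3.73 CPM in control islets. Of 9 T or NK cell markers Cd3e, Cd3d, Cd3g and Ncr1 were at 0 in all libraries, neither Il7r nor Lck passed (limma adjusted p = 0.0930 and 0.567), and their summed level was 3.99 and 3.80 CPM in cytoEV islets, against 4.94 and 5.86 CPM in control islets. Of 5 plasma cell markers Tnfrsf17 was at 0 and neither Sdc1 nor Prdm1 passed (limma adjusted p = 0.0552 and 0.449). Jchain and Mzb1 were below the filter. Jchain had 0 and 7 reads in the cytoEV libraries, against 3 and 0 in the control libraries, and Mzb1 had 21 and 28, against 33 and 36. The summed plasma cell level, mostly Sdc1 and Prdm1, was 11.1 and 11.6 CPM in cytoEV islets, against 14.5 and 14.6 CPM in control islets. Sdc1 passed as lower in 7 alternatives, among them the replicate block (adjusted p = 0.0118), DESeq2 (0.0138) and the fit without the variance trend (0.0474). The 7 also include the fits without a control library, in which more genes passed in all. The part of these cells in the levels of Irf4, Irf5 and Irf8 was not tested.

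Levels can be compared between genes only per length, here as CPM per kb of the merged exons of a gene in GENCODE M21. In cytoEV islets the order was Irf1 at 35.2, Irf2 at 13.2, Irf9 at 13.2, Irf3 at 9.12, Irf7 at 3.22, Irf8 at 1.12 and Irf5 at 1.06 CPM per kb, with Irf4 last. In control islets it was Irf1 at 19.9, Irf3 at 10.6, Irf2 at 9.98, Irf9 at 6.51, Irf5 at 0.955, Irf7 at 0.955 and Irf8 at 0.892 CPM per kb, with Irf4 at 0. In cytoEV islets the levels of Irf2 and Irf9 overlapped between libraries, as did those of Irf8 and Irf5. In control islets those of Irf3 and Irf2 overlapped, and those of Irf7 overlapped with both Irf5 and Irf8. Irf9 stood below Irf3 in control islets and above it in cytoEV islets, and Irf7 stood among Irf5 and Irf8 in control islets and above both in cytoEV islets. With the longest transcript as the length, Irf9 came before Irf2 in cytoEV islets, and Irf8 before Irf7 in control islets.

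Summed over the 8 genes, IRF transcripts reached 75.9 and 76.4 CPM per kb in cytoEV islets, against 49.3 and 50.4 CPM per kb in control islets. Irf1 made up 46.5% and 46.0% of that sum in cytoEV islets, against 38.4% and 41.6% in control islets. Irf9 made up 17.3% and 17.3%, against 12.8% and 13.3%. The share of Irf3 was 11.5% and 12.4% in cytoEV islets, against 23.9% and 18.7% in control islets, and that of Irf2 was 17.4% and 17.4%, against 19.1% and 20.9%. Shares of a sum are tied to each other, so a lower share of Irf2 or Irf3 goes with the rise of the others and does not by itself mean a lower level.

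**Figure D3:**
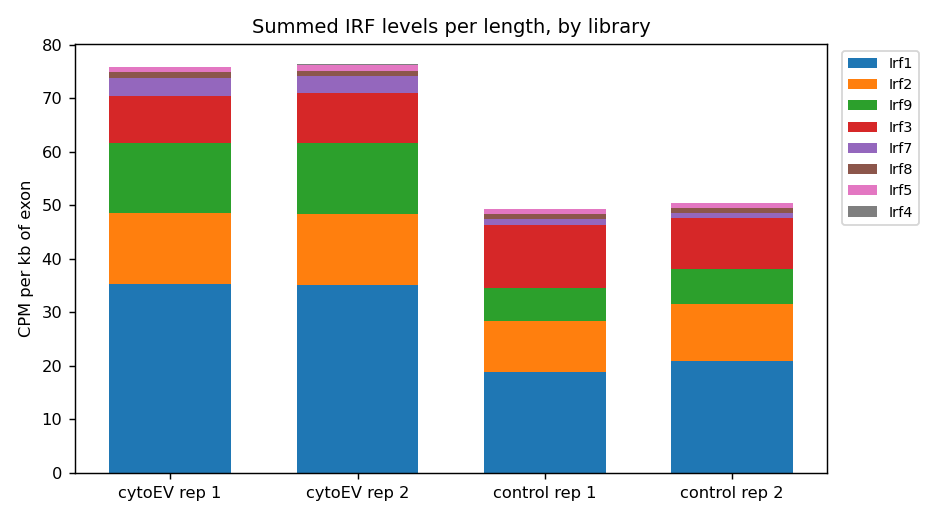
Level per length of the 8 IRF genes stacked for each library (vertical axis, CPM per kb of exon). Both cytoEV libraries reach about 76 CPM per kb and both control libraries about 50, and the Irf1 segment is the largest in all 4.

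Genes of the pathways around the IRFs were counted from lists. The shares to set beside these limma counts are 3.16% higher and 3.51% lower over all tested genes. Of 18 genes listed as IRF1 targets 12 were tested, 11 rose and 1, the protease gene Casp1, did not pass (log2 change 0.44, limma adjusted p = 0.114; singled out after its value was seen). For 2 of the 12, Cxcl9 and Cxcl10, both control libraries were under 1 CPM. These 2 passed the filter only through the cytoEV libraries and had to be higher there. The median log2 change of the 12 was 1.60, against 0.0055 over all tested genes. The 3 with the smallest p were Gbp2, an interferon-inducible GTPase, Cxcl10, a chemokine that attracts T cells, and B2m, the light chain of MHC class I. Gbp2 was at 56.8 and 58.3 CPM in cytoEV islets, against 1.83 and 1.82 CPM in control islets, and changed by 4.37 ± 0.11 in log2 terms (SE, limma adjusted p = 1.01e-07). Cxcl10 and B2m changed by 4.58 ± 0.13 and 2.25 ± 0.09 (SE, limma adjusted p = 2.42e-07 and 2.89e-06). In each of the 17 alternatives between 9 and 12 of the list were higher.

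Of 20 genes listed as ISGF3 targets 19 were tested and all 19 rose, with a median log2 change of 1.5. For 6 of the 19 both control libraries were under 1 CPM, so these passed the filter only through the cytoEV libraries and had to be higher there. Among the genes with the smallest p were Oasl2, of the oligoadenylate synthetase family, and the antiviral gene Ifit3. Ifit3 was at 20.5 and 18.8 CPM in cytoEV islets, against 0.902 and 1.74 CPM in control islets, and Oasl2 at 28.6 and 26.6 CPM, against 4.42 and 5.47 CPM. Their log2 changes were 3.18 ± 0.17 and 2.27 ± 0.13 (SE, limma adjusted p = 1.62e-05 and 1.74e-05). With a filter of 5 CPM 11 of the list were tested and 11 were higher, and with no filter 15 of 20 were. Without cytoEV replicate 1 the count was 16 of 19, and without cytoEV replicate 2 it was also 16 of 19.

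Of 19 genes that sense nucleic acids or carry the signal to IRF3 and IRF7, 17 were tested, 5 rose and 12 did not pass. The median log2 change of the 17 was 0.11. The 3 with the smallest p were all sensors or their regulators: Zbp1, a sensor of Z-form nucleic acid, by 1.55 ± 0.13, Dhx58, which encodes LGP2, by 1.30 ± 0.13, and Ddx58, which encodes RIG-I, by 0.83 ± 0.10 (SE, limma adjusted p = 0.000189, 0.000761 and 0.00184). Zbp1 passed the filter through the cytoEV libraries only. The RNA sensor genes Tlr3 and Ifih1, named after their values were seen, rose by 0.92 and 0.80 (limma adjusted p = 0.0126 and 0.0102). The kinase genes Tbk1 and Ikbke had log2 changes of -0.02 and 0.16 and the adaptor gene Mavs 0.12, and none passed (limma adjusted p = 0.937, 0.386 and 0.530; these 3 were also named after their values were seen). With no filter on low values 3 of the list were higher, and without control replicate 2, the count of lower genes was 2.

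Of 12 genes of interferon receptors, their kinases, STATs and feedback inhibitors 11 were tested, 4 rose and 1 fell. Besides that of Stat2, the rises included those of Usp18, an inhibitor of type I receptor signalling, by 0.64 ± 0.10, and of the interferon gamma receptor chain gene Ifngr2, by 0.51 ± 0.12 (SE, limma adjusted p = 0.00667 and 0.0347). Stat2 and Ifngr2 were named after their values were seen. Socs3, a feedback inhibitor of cytokine receptors, was at 9.05 and 9.68 CPM in cytoEV islets, against 31.1 and 28.3 CPM in control islets, and fell by 1.57 ± 0.11 in log2 terms (SE, limma adjusted p = 6.62e-05). The count of higher genes was 1 without cytoEV replicate 1 and 1 without cytoEV replicate 2, where Usp18 was at adjusted p = 0.0545 and 0.0892, and it was 2 with no filter. Without control replicate 1 the count of lower genes was 2.

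Of 13 partners and cofactors of IRFs, which include the IRF2-binding proteins and the acetyltransferases, 9 were tested and none passed. The count was 0 in either direction in limma, edgeR and DESeq2. At an unadjusted p under 0.05 in limma 1 of the 9 was higher and 0 lower. Of the 12780 genes tested 2977 were under that threshold, 1440 of them lower. The 3 with the smallest p were Kat2b, Irf2bp1 and Crebbp, with log2 changes of 0.28 ± 0.11, -0.21 ± 0.12 and -0.14 ± 0.09 (SE, limma adjusted p = 0.180, 0.336 and 0.388). Without control replicate 2, Kat2b passed upward and Irf2bp1 downward. This fit borrows the spread of the single control library from the cytoEV pair and called far more genes in all than the main fit.

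The interferon genes themselves were at or near 0. Of 20 listed, 16 had no read in any library, including Ifng and Ifna4. Summed over the 20, there were 8 and 11 reads in the cytoEV libraries, against 3 and 0 in the control libraries, and none could be tested. Ifnb1 had no read in 3 libraries and 0.0441 CPM in cytoEV replicate 2. These reads measure islet RNA at the end of the 48 h treatment and not earlier times.

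**Figure D4:**
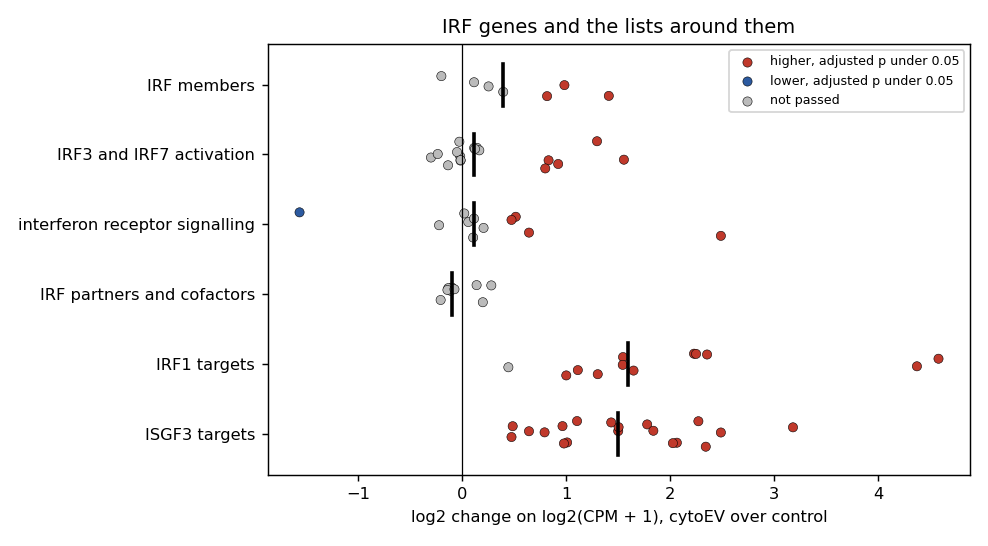
Log2 change of every tested gene (horizontal axis, log2(CPM + 1) scale, cytoEV over control) for the IRF members and the 5 pathway lists with tested genes; black bars are list medians. Points are red where the gene was higher and blue where it was lower at a limma adjusted p under 0.05, and the medians of the IRF1 and ISGF3 target lists lie at 1.60 and 1.5, to the right of 0.39 for the IRF members.

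For each member that rose, the genes whose pattern over the 4 libraries lay nearest were listed, by Euclidean distance of the log2(CPM + 1) values centred on each gene's mean. With 4 libraries in 2 groups, nearness mostly says that the change was of like size. Nearest to Irf1 were Sspn, Cmpk2 and Trim12a, at distances of 0.0362, 0.0367 and 0.0438. Cmpk2, a mitochondrial nucleotide kinase gene known to respond to interferon, was at 62.8 and 61.9 CPM in cytoEV islets, against 32.8 and 37.7 CPM in control islets. Nearest to Irf7 were Nfkb2, H2-Q4 and Oas1a, at 0.103, 0.131 and 0.177. Nfkb2, the gene of an NF-kB subunit, was at 19.0 and 18.5 CPM in cytoEV islets, against 6.75 and 5.53 CPM in control islets. Nearest to Irf9 were Trim21, Slc41a3 and Fmo5, at 0.0502, 0.0601 and 0.0892. Trim21, which encodes a cytosolic antibody receptor, was at 19.6 and 19.7 CPM in cytoEV islets, against 9.29 and 10.2 CPM in control islets. With no filter on low values Sspn did not pass (limma adjusted p = 0.0578). H2-Q4, Oas1a and Trim12a, like the Ifit and Gbp genes named above, have close relatives in the genome, between which the authors' counting could have split reads.

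The remaining genes that overlap or adjoin the members were read for the same reason. Irf1 overlaps the gene model Gm17334 on the opposite strand by 907 bases, and 1.44% of its 50-base stretches occur there. For Irf3 and Bcl2l12 this share was 1.48%. Scaf1, on the opposite strand with its 3′ end 99 bases from Irf3, had 46.7 and 52.9 CPM in cytoEV islets, against 72.7 and 49.3 CPM in control islets. Its control replicate 1 stood apart as that of Irf3 did, and it did not pass (limma adjusted p = 0.385). Gm16675, which begins 216 bases before Irf2 and runs away from it on the opposite strand, had between 0.659 and 0.948 CPM and was not tested. Irf8 lies inside Gm20388, a long gene model on the same strand, with which it shares none of its 50-base stretches. Irf2, Irf4 and Irf7 shared none with other gene models either.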

How the data were processed

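RNA of isolated islets was sequenced in 4 libraries made, per the labels, with a kit that keeps the strand of mRNA, each from 200 ng of RNA. Listed in the submitters' processing notes, with no role or order, are mm10, edgeR 3.1.1, StringTie 2.1.3, TopHat2 2.0.6 and R 3.6.1. The sources used here do not state whether counting was by strand. The authors deposited CPM values per gene symbol, which have the same sum in each library. Whole reads were recovered from a library's smallest step, of which 100% of values above 0 were multiples (tolerance 0.01 read). Control columns were assigned to the untreated samples by name and replicate number.

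The 12780 genes that reached 1 CPM in 2 or more libraries were tested on log2(CPM + 1) by limma 3.58.1 (R 4.3.3), with a trend of variance on level, group as the single term and Benjamini-Hochberg adjustment over all of them. A fold change on this scale understates the change of low genes. On the whole reads edgeR 4.0.16 called 322 genes higher and 402 lower and DESeq2 1.42.0 745 and 845, beside 404 and 449 in limma. The fits were run on simulated counts to check the code. The simulated spread was alike in both groups, unlike that of these libraries, so the run gives no rate of false calls for them. Replicate error is the SD over 2 libraries, and intervals of read counts cover counting error only. Named genes were the members, up to 3 genes with the smallest p in each list, the 3 nearest genes of each member that rose, and genes overlapping or within 1 kb of a member (of the endocrine list Slc2a2 is given alone, and gene models without a value here are left out where they lie in introns). Some genes that this rule and the lists cover are not reported here. The members and lists were chosen with earlier results of these data known. Spans, exon lengths and shared 50-base stretches came from GENCODE M21, promoters from RefSeq (GRCm38.p6). Python 3.11.15 with pandas 2.3.3, scipy 1.17.1 and matplotlib 3.10.9 was used for the rest. Alternatives were a replicate block, pseudocounts of 0.1, 0.5 and 5, other filters, rescaled, quantile-normalized and median-centred values, a fit without the trend, both count tests and leaving out each library.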

Additional observations from a re-analysis of the deposited data

How the results depend on the processing

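The rises of Irf1, Irf7 and Irf9 passed in all 16 alternatives, and no tested member changed direction in any. Irf5 and Irf8 passed in none of theirs. In all, 106 of 110 values of single members kept their side of the threshold, and the other 4 were those of Irf2 and Irf3 given with these genes. The count of members higher was 3 or 4 throughout, and the count of members lower ranged from 0 to 1 when single libraries were left out, the 1 being Irf3 without control replicate 2. The counts over all genes moved more than those over the IRFs. With single libraries left out, between 215 and 2408 genes were called higher and between 249 and 2023 lower. The smaller counts came without a cytoEV library and the larger ones without a control library. With no filter 149 genes were higher and 179 lower, with a filter of 5 CPM 252 were higher, and DESeq2 called 745 and 845. With the replicate block 481 genes were higher and 512 lower, and the 3 members higher stayed at 3, with Irf2 at adjusted p = 0.127. The 2 libraries with the same number did not deviate together (correlation -0.22 over 12780 genes), so the numbers were not taken to pair them. With the numbers crossed between groups in the block, an alternative chosen after seeing the data, 1469 genes were higher and 1434 lower, and 4 members were higher. The causes of these differences were not tested. Irf4 was tested only with no filter, where it did not pass (log2 change 0.080, adjusted p = 0.544), and Irf5 and Irf8 drop out at 5 CPM. Irf4 and the interferon genes were below the main filter, which is set on CPM and not on the number of reads.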
